A study of Rattus norvegicus with 6 samples.

Results

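The genes described here belong to growth hormone and prolactin receptor signalling in rat pancreatic islets, the endocrine cell clusters of that organ. They are 9 of the 13903 genes that the array probes could be matched to by name. *Ghr* encodes the growth hormone receptor, and *Prlr* the prolactin receptor. *Jak2* encodes the kinase that both receptors carry. *Stat3*, *Stat5a* and *Stat5b* encode transcription factors that this kinase activates. *Socs2*, *Socs3* and *Cish* encode inhibitors whose genes the pathway itself switches on. The set was chosen by the measured *Ghr* signal, the largest rise between the ages among the genes named earlier on these same arrays. The values of *Ghr* are therefore given as a description with no test, and the other genes were added as its pathway, with results of these arrays already known.

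The 3 arrays of the younger group held RNA from islets of male Wistar rats aged 3 months, and the 3 arrays of the older group RNA from male Wistar rats aged 12 months. Islets of both groups were freed with collagenase after euthanasia with CO2, and no treatment or allele is given in the labels for either. The comparison asks which transcripts of islets differ with age. Each of the 10 probes for these genes was printed on 1 spot, so each array gives 1 reading per probe.

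Growth hormone, prolactin and the placental lactogens bind single-pass receptors without enzyme activity of their own. Binding activates JAK2, which phosphorylates the receptor and then STAT5 and, to a lesser extent, STAT3. The STAT proteins enter the nucleus and bind DNA, and among the genes they induce are CISH and SOCS proteins, which in turn damp the receptor. In islets this pathway is best known for beta cell growth in pregnancy, when placental lactogen and prolactin stimulate beta cell proliferation and insulin secretion.

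The element that STAT dimers recognise has the letters TTCNNNGAA, which read the same on both strands. It was searched for in the RefSeq promoter windows of assembly GRCr8, each 250 bases before to 50 bases after a gene's start. A window was present for 8 of the 9 genes, and *Prlr* had 2. Of all 33469 windows, 8.87% held at least 1 match. *Cish* held 4, and 2 windows in all (0.00598%) held 4 or more. The stretches below are shown because *Cish* is the textbook STAT5 target of the pathway, and the other because it is the match of a receptor gene. The capitals mark the matches, and all stretches lie on the + strand.
*Cish*, chr8:116850723-116850752: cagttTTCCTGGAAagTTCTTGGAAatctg
*Cish*, chr8:116850831-116850860: ggTTCTAGGAAgatgcggcTTCCGGGAAgg
*Prlr*, chr2:60909473-60909502: ccaaaatgagTTCTAGGAAtaaagaatatc
The windows of *Ghr*, *Jak2*, *Stat3*, *Stat5a*, *Stat5b* and *Socs3* held no such letters. A match is a stretch of letters and not a measured site.

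Several facts of the whole series bear on these genes. Each age was scanned on its own, in 1 scan of 3 arrays, and age and scan therefore cannot be told apart. Negative control spots had a median signal of 90.5 ± 0.866 scanner units (SD, n = 3) at 12 months, where the younger arrays gave 30.2 ± 0.764 (SD, n = 3). The share of probes well above background, a mark set by the scanner software, was 61.2% ± 2.61 (SD, n = 3) in the older group, below the 75.7% ± 2.32 (SD, n = 3) of the younger group. The islet hormone transcripts *Ins1*, *Ins2*, *Gcg*, *Sst* and *Ppy* had the mark on each of the 6 arrays. Among the 9 genes, 7 were well above background on at least 3 arrays. *Stat5b* and *Socs2* reached that mark on no array. Levels are given as normalised log2 signals and are compared only within a gene, because probes differ in how strongly they bind.

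The growth hormone receptor transcript was near background in the younger islets and clearly measured in the older ones. The normalised log2 signal of *Ghr* was 9.41, 8.57 and 11.02 on the 12-month arrays and 2.26, 3.54 and 2.35 on the 3-month arrays. All older arrays lay above all younger ones, and the spread was wider within the older group. *Ghr* was well above background on 3 of 3 arrays at 12 months and on 1 of 3 at 3 months. Before normalisation the *Ghr* spot gave 1433, 590.5 and 1838 scanner units at 12 months, with software errors of 143.6, 60.2 and 184. On the 3-month arrays it gave 1.88, 11.4 and 3.47 scanner units, with errors of 1.88, 2.27 and 2.41. The lowest of these readings was about equal to its own error.

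**Figure D1:**
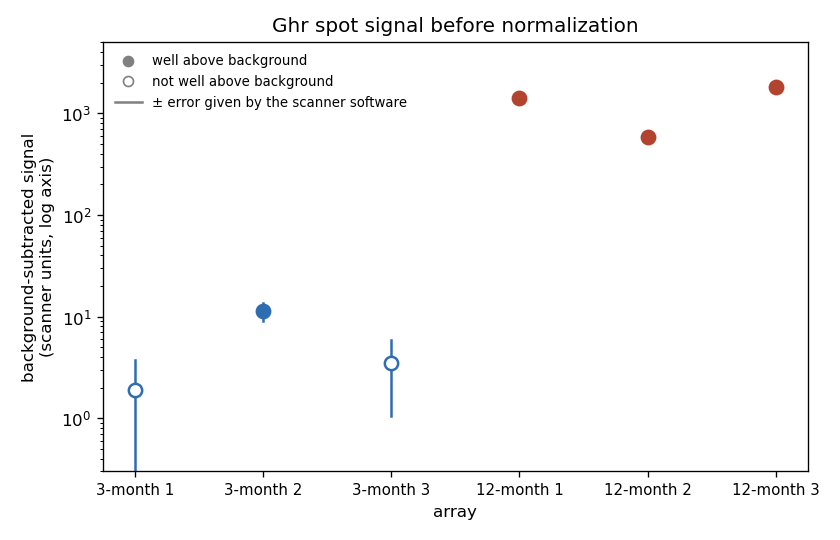
Background-subtracted signal of the *Ghr* spot on each array, in scanner units on a log axis, before normalisation. Points are single readings, bars are the error the scanner software gives (the bar of the dimmest array runs off the axis), and open points were not well above background. The 12-month readings lie between 590.5 and 1838, and the 3-month readings between 1.88 and 11.4.

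The mean normalised log2 signal of *Ghr* was 9.67 ± 1.24 (SD, n = 3) in older and 2.72 ± 0.71 (SD, n = 3) in younger islets, a difference of 6.95. The size of that difference rests on the dim younger signals. With the 2 signals that were not well above background raised to the lowest measurable signal of their arrays, it was 6.47. With normexp background correction, which adds an offset and so compresses dim differences, it was 3.55. In bulk islet RNA a change in the number of cells that express a gene and a change in RNA per cell cannot be told apart.

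The prolactin receptor transcript was bright at both ages and did not pass the test. Its brighter probe, for NM_001034111, read 12.14, 12.28 and 12.75 log2 units at 12 months and 12.94, 12.41 and 13.25 at 3 months. The ages overlapped. The difference was -0.48 (95% interval -1.22 to 0.26, limma adjusted *p* 0.316). The second *Prlr* probe, for NM_012630, read 9.58, 10.36 and 9.56 at 12 months and 10.293, 10.997 and 10.867 at 3 months. It gave a difference of -0.89 (95% interval -1.68 to -0.09, limma adjusted *p* 0.126), so the probes had the same sign and neither was called. Unlike *Ghr*, the prolactin receptor gene was well above background on every array by both probes.

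Of the 8 genes other than *Ghr*, 6 could be tested, and 1 rose and 1 fell. That is 33.3% of those tested, where 8.37% of all 17941 tested probes were called at an adjusted *p* under 0.05, 5.32% higher and 3.05% lower at 12 months. The genes were chosen with such results known, so nothing is read from the share. The arrays of the ages did not overlap for these 2 genes, as for 16.5% of all probes in the higher and 22.7% in the lower direction. *Jak2*, the kinase, was the gene that rose, and *Socs3*, an inhibitor of JAK kinases, was the one that fell.

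*Jak2* read 9.13, 8.73 and 9.05 log2 units on the 12-month arrays and 7.12, 7.66 and 7.13 on the 3-month arrays. Every older array was above every younger one, with more than a log2 unit between the nearest arrays of the ages. The mean rose from 7.30 ± 0.31 to 8.97 ± 0.21 (SD, n = 3), by 1.66 (limma SE 0.27, adjusted *p* 0.0193) or 3.17-fold. The exact permutation *p* was 0.1, the smallest that 3 arrays against 3 allow. The call was lost, at limma adjusted *p* between 0.063 and 0.0887, without 12-month array 1 or 3 or 3-month array 1 or 3, while the difference stayed between 1.57 and 1.63 in those fits.

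*Socs3* read 6.84, 6.87 and 6.66 log2 units at 12 months and 8.43, 8.02 and 7.72 at 3 months. The older arrays lay close together and below all the younger ones. The mean fell from 8.06 ± 0.35 to 6.79 ± 0.11 (SD, n = 3), which is -1.27 (limma SE 0.26, adjusted *p* 0.0368) or 2.41-fold lower, with an exact permutation *p* of 0.1. Before normalisation the ages overlapped, with spot signals of 96.7 to 215.8 scanner units at 12 months and 112.7 to 231.4 at 3 months. The call held without 12-month array 2 and was lost when any other array was left out, with limma adjusted *p* between 0.0591 and 0.13 and differences from -1.43 to -1.08.

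**Figure D2:**
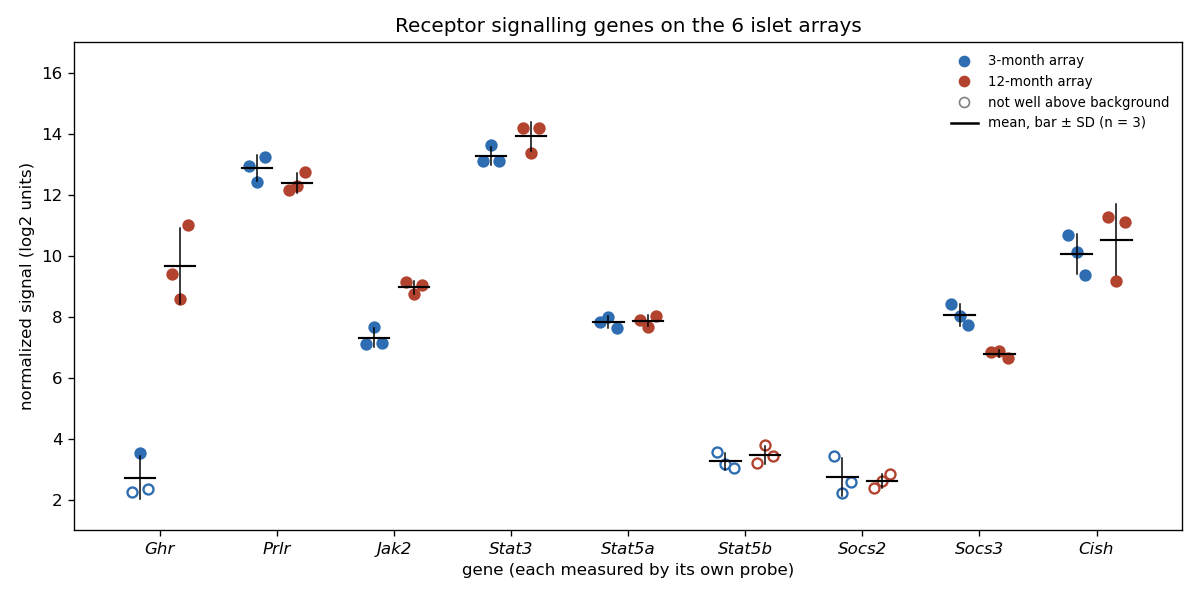
Normalised log2 signal of the 9 genes on each array (points), with the mean and SD of each age (n = 3). Open points were not well above background. *Ghr* and *Jak2* lie higher on all 12-month arrays, *Socs3* lies lower, and the ages overlap for the other genes.

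No STAT transcript of the set was called. *Stat3*, a transcription factor shared with the interleukin 6 family of cytokines, read 14.20, 13.37 and 14.20 log2 units at 12 months and 13.11, 13.62 and 13.10 at 3 months. One older array fell within the range of the younger ones. The difference was 0.65 (95% interval -0.12 to 1.42, limma adjusted *p* 0.21).

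*Stat5a*, one of the 2 STAT5 genes, read 7.91, 7.67 and 8.02 at 12 months and 7.82, 8.01 and 7.62 at 3 months. The ages overlapped across nearly their whole range. Its difference of 0.05 had a 95% interval of -0.51 to 0.61 (limma adjusted *p* 0.897). *Stat5b*, the other STAT5 gene, lay between 3.04 and 3.78 on the 6 arrays and has no measured difference.

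*Cish*, the inhibitor with the 4 STAT matches printed above, was measured on every array with a wide spread. It read 11.28, 9.18 and 11.12 log2 units at 12 months and 10.67, 10.11 and 9.38 at 3 months. The older group held both the highest and the lowest value. The difference was 0.47 (95% interval -1.01 to 1.96, limma adjusted *p* 0.617). *Socs2*, an inhibitor best known for limiting growth hormone action, lay between 2.20 and 3.43 and lacked the above-background mark throughout. Of the 3 inhibitors, *Socs3* was called, the interval of *Cish* held both directions and *Socs2* had no measured difference.

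**Figure D3:**
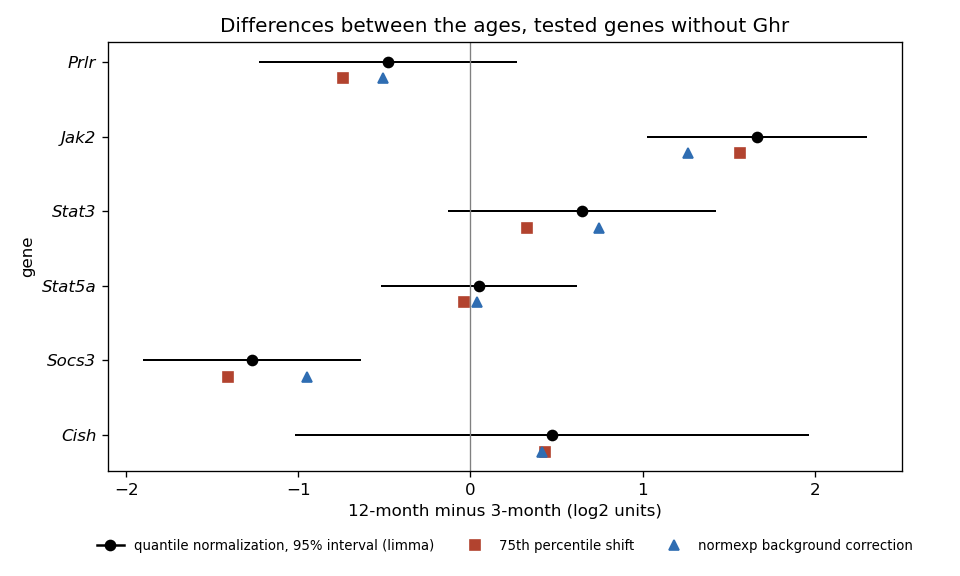
Difference between the ages (12-month minus 3-month, log2 units) for the 6 tested genes other than *Ghr*, with limma's 95% interval under quantile normalisation (black) and the values under a 75th percentile shift (squares) and normexp background correction (triangles). *Jak2* lies above 0 and *Socs3* below 0 in all of them, and *Stat5a* changes sign with the percentile shift.

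The median difference of the 6 tested genes was 0.26, beside -0.17 for all tested probes. With each array shifted to a common 75th percentile the median of all probes was -0.40. Relative to that median *Jak2* stood at 1.97 and *Socs3* at -1.01, against 1.84 and -1.10 under quantile normalisation. With normexp background correction the values relative to the median were smaller, 1.36 for *Jak2* and -0.85 for *Socs3*.

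A wider list of 74 genes covered the hormones, related receptors, kinases and adaptors, STATs, negative regulators and targets of the pathway. A probe was found for 65 of them, and 52 could be tested. Of these, 5 rose, 0 fell in limma at an adjusted *p* under 0.05 (7 were lower at an unadjusted *p* under 0.05) and 47 were not called, so that 9.62% were called beside 8.37% of all tested probes, a share near that of the arrays as a whole. At the limits the study used, an unadjusted *p* under 0.05 (here from the unpaired limma fit) and a change of more than 2-fold, 8 were higher and 4 lower, beside 10.1% and 11.9% of all tested probes. The ages did not overlap for 36.5% of the listed genes and for 39.2% of all probes. The median difference of the list was 0.02. *Pim1*, counted as lower at the unadjusted *p* and at the limits of the study, lacked the above-background mark on every 12-month array. Its fall is therefore not measured.

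**Figure D4:**
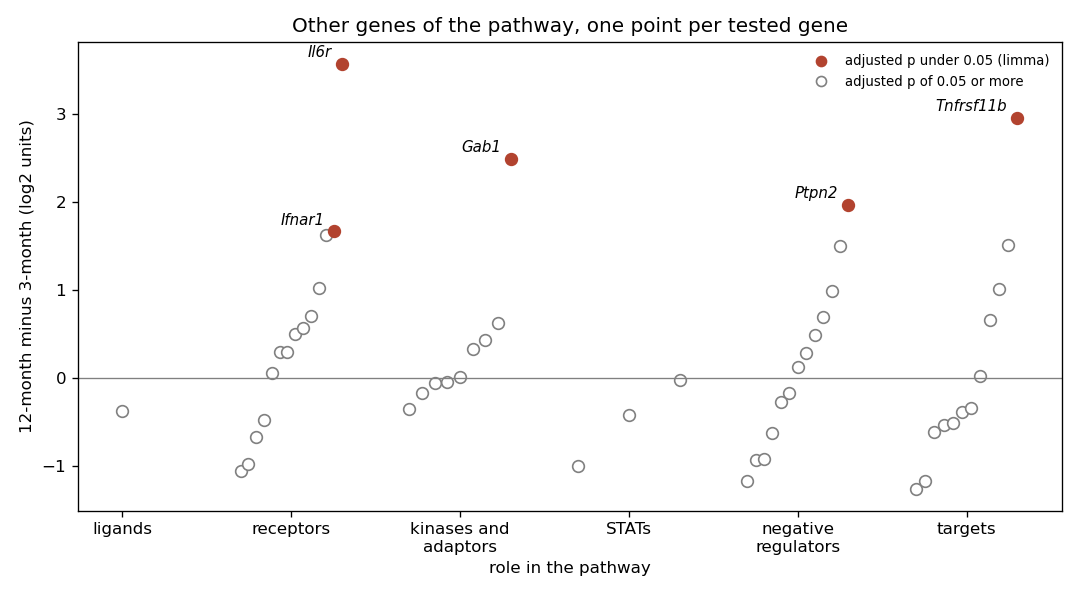
Difference between the ages (12-month minus 3-month, log2 units) for the 52 tested genes of the wider list, 1 point per gene, by role. Filled points passed an adjusted *p* of 0.05 in limma. They are 2 receptors, 1 adaptor, 1 phosphatase among the negative regulators and 1 target, all higher at 12 months.

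Of 4 hormone genes 1 could be tested. The growth hormone gene *Gh1* and the placental lactogen gene *Prl3b1* lacked the above-background mark on every array, and *Prl* had it on 1 younger array. *Prl3d1*, another placental lactogen gene, was measured on all arrays, with a difference of -0.37 (95% interval -1.15 to 0.40, limma adjusted *p* 0.446). It was not called.

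Among 22 other receptors, 14 could be tested and 2 rose, where 5.32% of all tested probes were called higher. Nothing is read from counts this small, here or for the roles below. *Il6r*, the ligand-binding chain of the interleukin 6 receptor, read 11.22, 12.06 and 12.12 log2 units at 12 months and 9.18, 8.20 and 7.33 at 3 months. All older arrays lay far above the younger ones, with a difference of 3.57 (limma SE 0.51, adjusted *p* 0.0145), and the call was lost only without 12-month array 3 among the fits that left out an array. *Ifnar1*, a chain of the type I interferon receptor, read 8.22, 7.27 and 8.19 at 12 months and 5.90, 6.60 and 6.18 at 3 months. The groups did not overlap, and the difference was 1.66 (limma SE 0.35, adjusted *p* 0.0383). Of the 6 fits that left out an array, *Ifnar1* was called in 1, the fit without 12-month array 2. With the 75th percentile shift it was not called (limma adjusted *p* 0.0633). *Il6st*, the signalling partner of *Il6r*, and *Lepr*, the leptin receptor, lacked the above-background mark on every array.

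The other Janus kinases with a probe were not called. *Jak1* differed by 0.62 (95% interval -0.164 to 1.399, limma adjusted *p* 0.232) and *Jak3* by -0.17 (95% interval -1.12 to 0.78, limma adjusted *p* 0.787). Of 9 tested kinases and adaptors 1 rose, beside 5.32% of all tested probes. *Gab1*, a docking protein that links receptors to phosphatidylinositol 3-kinase and the phosphatase SHP2, read 10.63, 10.93 and 10.65 at 12 months and 8.116, 8.633 and 7.996 at 3 months. The older arrays were tightly grouped above all the younger ones. The difference was 2.49 (limma SE 0.27, adjusted *p* 0.00648), and it was called in 15 of 17 alternatives, among them all 6 fits that left out an array. *Grb2* and *Shc1*, adaptors of the same kind, differed by 0.01 and -0.05, with 95% intervals of -0.51 to 0.54 and -0.57 to 0.48.

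Among STAT genes outside the set, *Stat2* and *Stat4* were not called. *Stat2* differed by -0.42 (95% interval -1.02 to 0.18, limma adjusted *p* 0.284) and *Stat4* by -1.004 (95% interval -2.21 to 0.20, limma adjusted *p* 0.213). *Stat6* lacked the mark on every array.

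The negative regulators held 13 tested genes, of which 1 rose, beside 5.32% of all tested probes. *Ptpn2*, a phosphatase that removes phosphate from JAK1, JAK3 and STAT proteins, read 11.69, 11.78 and 11.46 at 12 months and 9.23, 10.27 and 9.55 at 3 months. The older arrays lay above all younger ones, with a difference of 1.96 (limma SE 0.32, adjusted *p* 0.0206). It was called in 2 of the 6 fits that left out an array and lost without 12-month array 1 or 3 or 3-month array 1 or 3. The tested SOCS genes beside *Socs3* were not called. *Socs1* differed by -1.18 (95% interval -2.19 to -0.16, limma adjusted *p* 0.118), *Socs4* by 0.98 (0.16 to 1.80, limma adjusted *p* 0.11) and *Socs5* by 0.28 (-0.39 to 0.95, limma adjusted *p* 0.507).

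Of 12 tested targets 1 rose, beside 5.32% of all tested probes. *Tnfrsf11b*, which encodes the secreted decoy receptor osteoprotegerin, induced in beta cells by lactogens, read 12.65, 12.998 and 12.753 at 12 months and 8.94, 10.61 and 9.99 at 3 months. The younger arrays varied more than the older ones and lay well below them. The difference was 2.95 (limma SE 0.44, adjusted *p* 0.0158). The call was lost without 12-month array 1 or 3 or 3-month array 3, while the difference stayed between 2.50 and 3.34 in all alternatives. *Igf1*, the classical growth hormone target in liver, was well above background on 1 array of each age and was not tested. The cyclin gene *Ccnd2* differed by 1.01 (95% interval -0.13 to 2.15, limma adjusted *p* 0.193). *Tph1*, the serotonin synthesis gene that lactogens induce in pregnancy, was well above background on no 12-month array and on 2 at 3 months. It was not tested, and read 4.58, 4.77 and 5.11 at 12 months and 3.18, 4.42 and 5.195 at 3 months. The lowest log2 signal with the mark was 4.26 to 5.13 on 12-month arrays and 2.89 to 3.17 on 3-month arrays. The mark is therefore no measure of the direction with age.

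**Figure D5:**
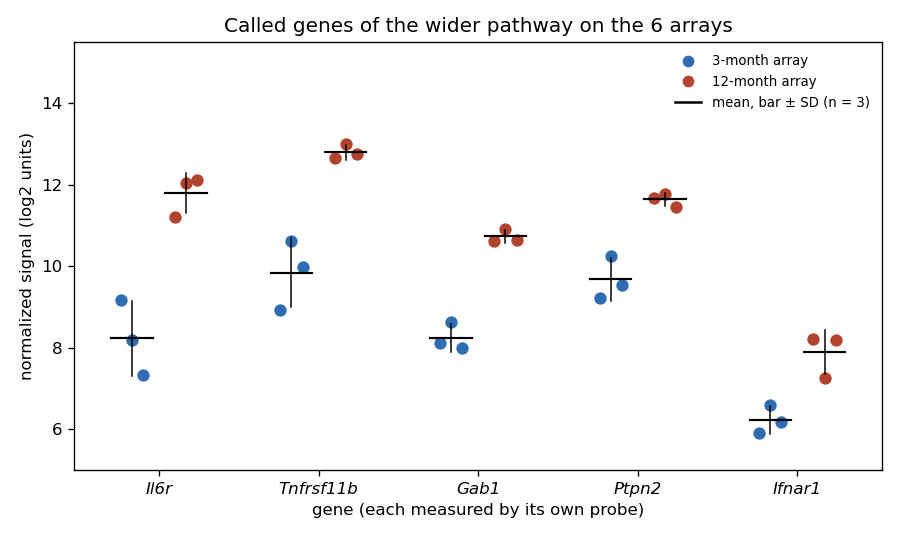
Normalised log2 signal of the 5 called genes of the wider list on each array (points), with the mean and SD of each age (n = 3). For each gene all 3 of the 12-month arrays lie above all 3-month arrays.

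By Pearson correlation over the 6 arrays, among 11147 other genes, the profiles most like that of *Ghr* included those of *Mlx*, *Xpo7*, *Isl1* and *Med19*, with r from 0.996 to 0.998. The 6 points fall into the 2 ages, which share a scan each, and 745 genes had r above 0.9, so these values are a description. The likeness is one of shape and not of size. *Mlx*, a partner of glucose-responsive transcription factors, read 12.31, 12.25 and 12.49 at 12 months and 11.53, 11.71 and 11.62 at 3 months, a difference of 0.73. *Isl1*, an islet transcription factor, read 8.24, 7.76 and 9.26 at 12 months and 5.11, 5.45 and 4.94 at 3 months, a difference of 3.25. Like *Ghr*, *Isl1* was highest on 12-month array 3 and lowest of the older arrays on array 2. The low on array 2 was shared by 5 of the 7 measured genes of the set, *Ghr* among them.

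Some markers of cell types were called on the same arrays, where 5.32% of all tested probes were called higher and 3.05% lower. The log2 of the summed signal of each list is dominated by its brightest probes and is compared only between arrays. Quantile normalisation gives all arrays the same top values, which limits how far the beta cell, other endocrine and acinar sums can move. The beta cell and other endocrine sums were higher on every 12-month array than on any 3-month array, and the acinar sums overlapped. Of the beta cell markers 2 of 7 tested rose, *Slc2a2* and *Slc30a8*, and the sum over all 7 lay between 20.003 and 20.182 at 12 months and between 19.66 and 19.89 at 3 months. For stellate and mesenchymal markers 1 of 5 rose, *Pdgfrb*, with sums of 14.63 to 15.99 against 13.25 to 14.05. At the study's limits, with the unpaired limma *p*, 4 of these 5 were higher and 0 lower, beside 10.1% and 11.9% of all tested probes. The 4 were *Col3a1*, *Pdgfrb*, *Dcn* and *Lum*. Of the adipocyte markers 2 of 7 tested rose, *Fabp4* and *Lpl*, and 2 that were not called, *Cfd* and *Retn*, were lower at an unadjusted *p* under 0.05 (-1.05 and -1.90, limma adjusted *p* 0.145 and 0.0793). The adipocyte sums were 11.62 to 12.45 against 10.87 to 12.15. *Adipoq*, an adipocyte hormone, read 10.34, 6.13 and 6.07 at 12 months and 6.88, 5.98 and 5.96 at 3 months and was not called, with 12-month array 1 far above the others. *Lep* and *Retn* lacked the above-background mark on the older arrays and had it on all 3 younger ones. The lowest log2 signal with the mark was 4.26 to 5.13 on 12-month arrays, and the 3-month mean of *Retn* was 4.78. The -1.90 of *Retn* is therefore not a measured fall. Nerve and Schwann cell markers fell for 3 of 7, with sums of 10.88 to 11.55 against 12.31 to 13.21.

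Other endocrine markers rose for 1 of 6 genes, *Hhex*, with sums of 19.78 to 19.94 against 19.45 to 19.59. No acinar, duct, endothelial or immune marker was called in limma (0 of each list). An unadjusted limma *p* under 0.05 was reached by 4 endothelial markers, 1 higher and 3 lower, and by 0 acinar, duct or immune markers. *Cdh5*, 1 of the 3 lower, lacked the above-background mark on every 12-month array, so its fall is not measured. The sums were 20.63 to 21.25 against 20.61 to 21.07 for acinar markers, 12.46 to 14.34 against 13.03 to 14.05 for duct markers and 12.96 to 13.86 against 13.17 to 14.59 for immune markers. The acinar sums do not show even acinar content. *Pnlip* lay between 18.31 and 18.52, but *Ctrb1* read 17.64, 14.39 and 17.91 at 12 months and 16.61, 17.07 and 14.02 at 3 months. *Cel* read 17.37, 14.36 and 17.89 at 12 months and 17.15, 17.31 and 14.82 at 3 months. Endothelial sums were 14.94 to 15.70 at 12 months and 15.78 to 16.17 at 3 months, without overlap. The part of these cell types in the values of *Ghr*, *Jak2* and *Socs3* was not tested.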

How the data were processed

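RNA of 6 islet samples, 3 of each age, was hybridised to 1-colour Arraystar/Agilent arrays, profiled by Arraystar. Spot intensity in the deposited scanner output came from Agilent Feature Extraction 11.0.1.1, per the file headers, without normalisation between arrays, beside quality marks coded as other values. A second table by the authors gives log2 values of 12145 probes, normalised between arrays, and served as an alternative. Precision is limited by the number of arrays.

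Background-subtracted intensities were put on the log2 scale, averaged over spots without an outlier mark and quantile normalised over 24684 probes. Probes well above background on at least 3 arrays were kept, and 17941 were tested with limma 3.58.1 in R 4.3.3 (two-sided, no block), with Benjamini-Hochberg adjustment over all of them. Accessions were matched without versions to a RefSeq table of GRCr8, which named 14294 probes. The array design uses rn4, so no array coordinates are given. A gene was represented by its brightest probe.

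Named were the 9 genes, called genes of the wider list (at most the 14 largest), the 5 genes most correlated with *Ghr*, and markers of lists that moved. Named beside them were whole subfamilies (hormones, Janus kinases, SOCS genes), STAT genes and single genes of known role. The single genes were *Grb2*, *Shc1*, *Igf1*, *Ccnd2*, *Tph1*, *Adipoq*, *Il6st*, *Lepr*, *Pim1* and *Cdh5*. All of these were chosen after their values were seen. Some genes that the rule or these families hold are not reported here. The genes and lists were chosen with earlier results of these data known. The alternatives are given in the closing section. The limma step, tested on simulated data of 17874 probes for this comparison, recovered 0%, 48.5% and 74.5% of 200 changed probes at true folds of 2, 4 and 8. Ages came from the age field of the labels, and 1 of the 12-month arrays carries no number in its title. Supplementary notes of the study describe the array *p* values as paired, without saying how arrays were paired, and its methods name Student's test, which was run here unpaired. The labels pair no arrays, and deviations correlated at -0.01 for number 1 and at -0.31 for number 2, so the main fit has no pairs.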

Additional observations from a re-analysis of the deposited data

How the results depend on the processing

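Against 2 called genes of the 8 beside *Ghr*, the count was 1 with an intensity trend and robust variances, 0 with the methods' t-test, run unpaired (2 at the study's fold and *p* limits), 0 with only the 4 arrays that have a common name ending, and 0 to 2 when 1 array was left out. Against 5 called genes of the wider list, it was 15 with array weights, whose estimation stopped before converging, 1 with the methods' t-test (9 at the study's limits), 0 with the 4 arrays, 10 at an adjusted *p* under 0.1, 12 at the study's limits with the unpaired limma *p* and 1 to 5 when 1 array was left out. With the replicate block over the arrays numbered 1 and 2 in both ages, 0 genes were called in either list. The labels do not say whether arrays of the same number were paired. *Stat5a*, which was not called, gave -0.0392 under the 75th percentile shift, -0.124 with the replicate block, -0.0232 with the 4 arrays and from -0.048 to 0.15 with 1 array left out. *Cish*, also not called, was at -0.16 with the replicate block. *Stat3* was called with array weights only (0.84, limma adjusted *p* 0.0433). Fewer arrays enter the block and the 4-array fits; the cause of the other changes was not tested. *Jak2* was called in 10 of 17 alternatives and *Socs3* in 8 of 17, with the direction of each the same in all. The raising of dim *Ghr* signals was chosen after seeing the data. Dim probes are the least certain, since background was higher at 12 months.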
